A study of Mus musculus with 36 samples.

Results

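DNase I accessibility at the promoters of DNA replication genes was followed in B3, a mouse pre-B cell line. The set held 48 genes of the replication machinery. Its members are the DNase hypersensitive sites (DHS, stretches of open chromatin that the enzyme DNase I cuts readily) that lie within 1000 bp of any transcription start site (TSS) of these genes in the GENCODE vM21 comprehensive annotation. This rule gave 69 of the 52788 DHS of the series, at 46 of the 48 genes, out of 15403 promoter DHS of any gene.

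There were 36 DNase-seq libraries, 18 from an Ikaros line and 18 from a Control line. Each line was taken at 6 times (0, 2, 6, 12, 18 and 24 h), which makes 12 groups of 3 libraries. The Ikaros line is B3 transduced with an MSCV retroviral vector that encodes HA-tagged wild type Ikaros, a zinc finger transcription factor of lymphoid cells, fused to the ERt2 hormone-binding domain and followed by IRES-GFP. The Control line carries the vector with ERt2 and without Ikaros, so both lines share the vector and the drug. The drug, 4-hydroxytamoxifen (4-OHT) at 0.5 uM, lets an ERt2 fusion enter the nucleus. Replicates 4, 5 and 6 belong to batches 11, 12 and 13. The labels name 4-OHT for every library, whereas by the study's methods the 0 h cells were left without drug and harvested in collections of their own. A difference between 0 h and a later time in the same line therefore cannot be told apart from a difference between the collections. The fusion protein comes from a viral promoter in a cell line that still has its own genes, so the line is a model of Ikaros gain and not of normal development.

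Values are log2 of normalised read density per DHS length, after the authors' own correction for noise, and they can be compared between DHS as well as between libraries. The study states a minimum read depth per replicate, but the reads behind each value are unknown. Counting intervals are therefore not given, and precision rests on 3 libraries a group. The median over all DHS was 3.90 to 4.11 in the 36 libraries and no pair of libraries was identical. The 12 group means spanned 6 of 11 possible dimensions, so the means of different groups are not independent. Of 12 pre-B marker genes, 10 had a promoter DHS, among them Cd79a, Cd79b, Vpreb1, Igll1, Ebf1 and Pax5. Promoter DHS were present at 2 of 6 T cell markers, 1 of 6 myeloid, 1 of 4 erythroid and 2 of 6 epithelial or stromal markers. In bulk chromatin, fewer cells with an open site and less cutting per cell cannot be told apart.

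Replication starts where the origin recognition complex (ORC) marks DNA and where Cdc6 and Cdt1 load the MCM helicase in an inactive form. The kinase Cdc7 with its partner Dbf4 then joins Cdc45 and the GINS complex to the helicase, and primase and the polymerases alpha, delta and epsilon copy the opened strands, with RPA coating single-stranded DNA and RFC loading the sliding clamp. Many of these genes are transcribed in late G1 and S phase under E2F transcription factors, and the pre-B transition that Ikaros drives is known for an exit from the cell cycle. The question put to the data was whether their promoters lost accessibility as the Ikaros line progressed.

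Of the motifs counted, the E2F motif had the highest share in members relative to all promoters. Matches to TTTCCCGC or TTTGGCGC on either strand, in a window of 300 bases centred on the DHS, were found at 15 of 69 member DHS (21.7%), against 392 of all 15403 promoter DHS (2.54%). With 1 main DHS per gene (the member of highest mean level), the count was 13 of 46 (28.3%). The 18 matches, counted per strand, lay 20 to 126 bp from the centre of their DHS, and 3 DHS held a pair. At Gins1 the pair, at -82 and -78 bp, lies on opposite strands and shares bases, so it is a single palindromic site. These counts are descriptions of the reference sequence, and a match does not show that E2F bound there.

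Segments of 28 bases around matches at helicase and loading genes, and at genes described further on, are shown to let the flanks be compared. They were read from GRCm38 (mm10) on the strand on which the match reads 5′ to 3′, and capitals mark the match.
Mcm3, chr1:20820257-20820284, minus strand: cttgggaagtTTTGGCGCcaaggcggtg
Mcm3, chr1:20820276-20820303, plus strand: cttcccaagtTTTCCCGCcacggaagtt
Mcm5, chr8:75109350-75109377, minus strand: ggctggacgtTTTGGCGCgaaagttctt
Mcm6, chr1:128359735-128359762, minus strand: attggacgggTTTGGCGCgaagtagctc
Mcm6, chr1:128359798-128359825, minus strand: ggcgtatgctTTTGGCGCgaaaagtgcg
Mcm7, chr5:138172031-138172058, plus strand: ggacaccctgTTTCCCGCggttcgaaat
Cdc6, chr11:98907831-98907858, plus strand: gtagagcggcTTTGGCGCgagttgactt
Cdt1, chr8:122568037-122568064, plus strand: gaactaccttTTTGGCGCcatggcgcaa
Timeless, chr10:128232094-128232121, minus strand: ggtcgcagccTTTCCCGCcactcggctg
Pold3, chr7:100121468-100121495, minus strand: agcgaagctgTTTCCCGCcggcgggagc
Rpa2, chr4:132768012-132768039, minus strand: ctagccccctTTTCCCGCcaaactgcta

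Among the MCM genes with a DHS, Mcm3, Mcm5, Mcm6 and Mcm7 held a match and Mcm2 did not. In the RefSeq start window of Mcm6 (GRCm38.p6, 250 bases before and 50 after the start), both matches lie upstream, from positions -110 and -47. The 150 bases before that start, chr1:128359706-128359855 on the minus strand, are shown because they carry 2 matches of the same letters in the same direction.
Mcm6: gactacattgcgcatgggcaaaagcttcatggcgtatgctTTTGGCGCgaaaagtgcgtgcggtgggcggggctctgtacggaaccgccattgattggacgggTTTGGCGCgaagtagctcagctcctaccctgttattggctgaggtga
Orc1, a gene whose DHS changed between the lines, had no E2F match in its window. Its 86 bases upstream that overlap no annotated exon, chr4:108579337-108579422 on the plus strand, hold a CCAAT box, the element bound by NF-Y, in capitals.
Orc1: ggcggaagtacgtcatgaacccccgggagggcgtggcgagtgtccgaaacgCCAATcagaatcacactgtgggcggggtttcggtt

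The other motifs differed less from the background in windows centred on the DHS. CCAAT on either strand was in 42% of member windows and 34.6% of all promoter windows. The GC box GGGCGG, bound by Sp1, was in 55.1% and 50.6%, and the Ikaros core TGGGAA was in 23.2% and 22.4%. The shares depended on the window. In RefSeq start windows that overlap a DHS, TGGGAA was in 38.1% of 42 member windows and 22% of the 9831 windows of any gene. There CCAAT was in 52.4% and 38.8%, GGGCGG in 73.8% and 66.2%, and either E2F motif in 28.6% and 3.28%. GC content was the same in the middle, with a median of 58.1% in members and in all promoter DHS, and CpG content was 6.49% and 5.64%.

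**Figure D1:**
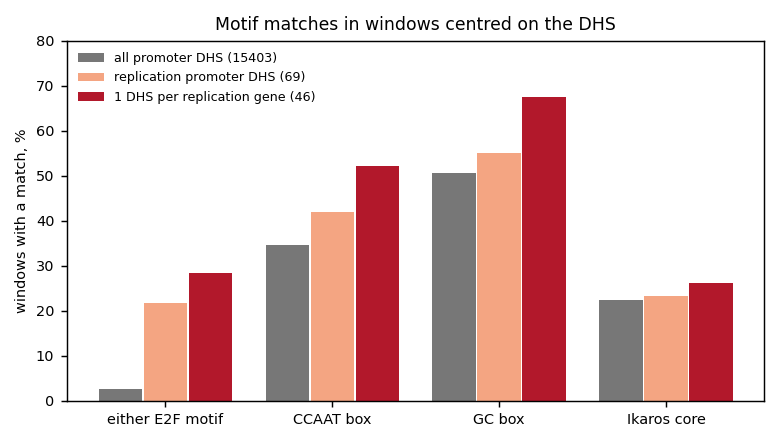
Share of 300-base windows centred on a DHS that hold a motif match on either strand, in percent, for all 15403 promoter DHS, the 69 replication promoter DHS and 1 main DHS for each of 46 replication genes. The E2F bars stand at 2.54%, 21.7% and 28.3%, while the bars of each other motif lie closer together.

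Replication promoter DHS had a higher median level than promoter DHS at large. The median log2 level over the 36 libraries was 4.95 for the 69 DHS and 5.23 for the 46 main DHS, against 4.49 for all promoter DHS and 4.66 for those over 200 bp wide. Of the 69 DHS, 48 lay at or above the middle of all promoter DHS and 15 at or above their 90th percentile. The main DHS were chosen for their level, so their higher median is no comparison with promoters at large. The highest log2 levels were those of Rpa2 (6.11), a subunit of the single-strand binding protein RPA, of Gins2 (6.06), a GINS subunit, of Pold1 (5.97), the catalytic subunit of polymerase delta, and of Mcm5 (5.90). The lowest were at internal start sites of Timeless, with 3.04 and 3.14.

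By role, the median log2 level of the main DHS was 5.72 for the 3 RPA genes, 5.59 for the 5 MCM genes with a DHS, 5.51 for Cdc6 and Cdt1, and 5.20 for the 8 genes of helicase activation. It was 5.13 for the 6 ORC genes, 5.06 for the ribonucleotide reductase genes Rrm1 and Rrm2, 4.97 for the lagging strand genes, 4.93 for the 5 RFC genes, 4.90 for the fork protection genes and 4.83 for the 8 polymerase and primase genes. The roles overlapped widely, since levels ran from 4.29 to 5.97 within the polymerases alone. Mcm4, a helicase subunit, had no DHS nearer than 22387 bp to a start site, and Pcna, the sliding clamp, had its nearest at 2115 bp (chr2:132247532-132248055, mean 5.32), outside the limit.

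Most members were simple promoters. There was 1 DHS at 28 genes, 2 at 14 and at least 3 at 4 genes, 51 of the 69 overlapped a TSS, and 15 were at most 200 bp wide (21.7%, against 28.3% of all promoter DHS). Another 15 lay over 1000 bp from the outermost gene start, at starts of internal transcripts, and 12 were members only under the comprehensive annotation. The members nearest the limit were 940 bp (Dbf4, 4.42), 904 bp (Timeless, 3.04) and 898 bp (Rnaseh2a, 4.23) away, and the nearest DHS beyond it were at 1041 bp (Rrm1, 3.41), 1158 bp (Pole2, 4.75) and 1165 bp (Pola2, 5.30). A further protein-coding TSS lay within 1000 bp of 19 member DHS, as at Rpa1 and Smyd4, Wdhd1 and Socs4, Orc3 and Rars2, Orc1 and Prpf38a, Orc4 and Mbd5, Fen1 and Tmem258, Rpa3 and Umad1, Pole and Pxmp2, Lig1 and Zswim9, Dbf4 and Slc25a40, or Mcm7 and Ap4m1. For those DHS the signal cannot be assigned to the replication gene alone.

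Group means of a member DHS ranged over a median of 0.56 log2 units across the 12 groups. The range was 0.95 at the 15 narrow DHS and 0.52 at the 54 wider ones, and it was largest, 2.55, at the internal Timeless DHS of chr10:128246999-128247499. The median SD between replicates of a member was 0.13 to 0.20 in the Ikaros groups and 0.18 to 0.31 in the Control groups.

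**Figure D2:**
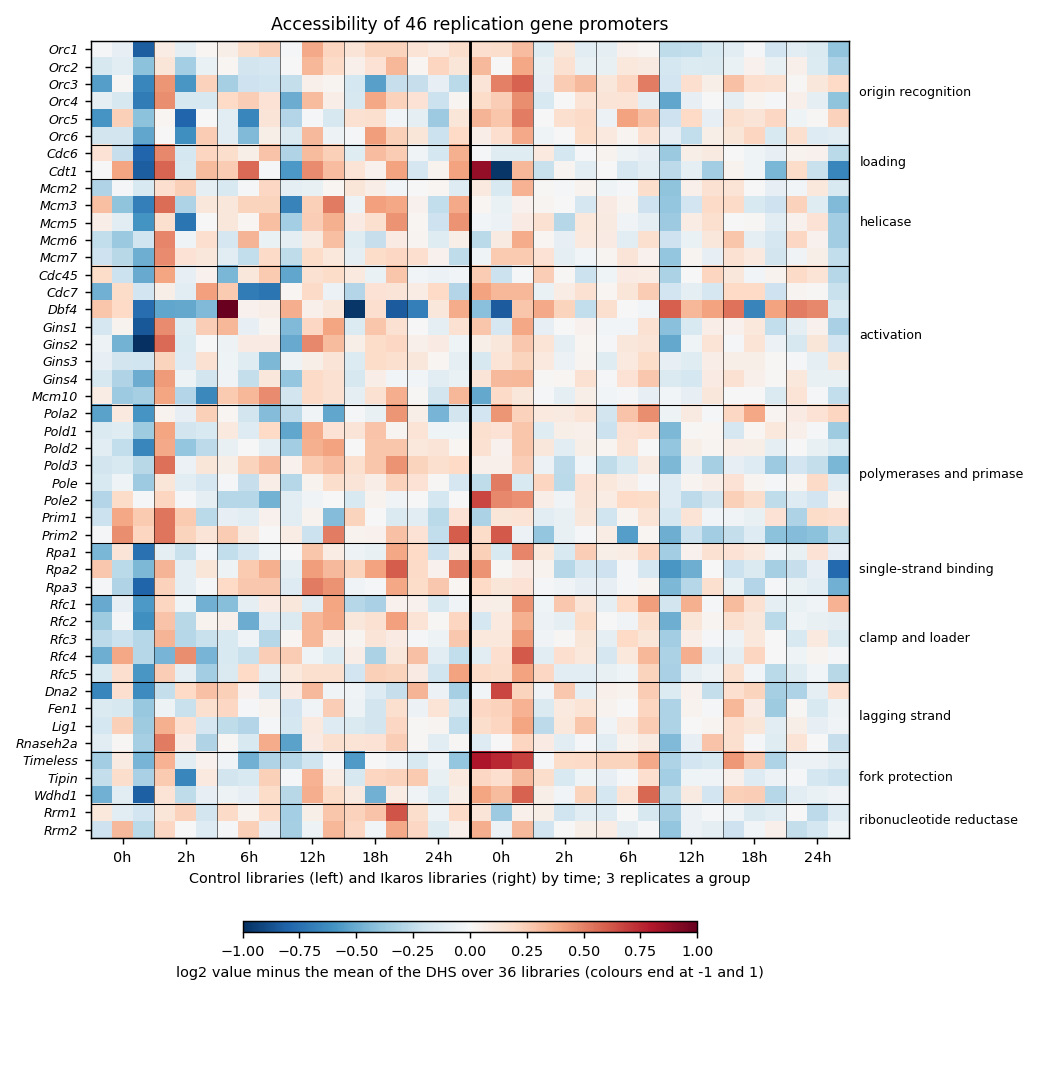
Log2 value of the main DHS of each of 46 replication genes (rows, by role) in each of 36 libraries (columns, Control left, Ikaros right, by time, replicates 4, 5 and 6 in order), minus the mean of that DHS. The Control 0 h library of replicate 6 is blue and the 3 Ikaros 0 h libraries are red at most genes, with 44 of 46 genes below their mean in the former. The Ikaros 12 h library of replicate 4 is blue at 45 of 46 genes.

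At 0 h the Ikaros line was more accessible at 19 of the 69 DHS (limma adjusted p under 0.05 over all DHS) and less accessible at none. Of all 52788 DHS, 7.81% were called higher in that comparison, 5.04% lower and 12.9% in either direction. Of promoter DHS 22.5% were called higher, 1.75% lower and 24.2% in either direction, and the member share was 27.5%. The median difference was 0.36 log2 units over the members, 0.30 over promoter DHS and -0.06 over all DHS. The groups did not overlap, with Ikaros higher, at 27 member DHS, where 30.4% of promoter DHS and 12.4% of all DHS did the same, and with Ikaros lower at 4 member DHS, against 4.06% and 11.2%.

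The largest of these differences lay at genes of the fork and of helicase activation. Timeless is a fork protection factor, and its promoter DHS (chr10:128231511-128232570) read 5.09, 5.03 and 4.96 in the Ikaros 0 h libraries and 3.93, 4.37 and 3.81 in the Control ones. All 3 Ikaros libraries stood above all Control libraries. The difference was 0.99 ± 0.19 (SE, n = 3 libraries a group), 1.99-fold, with a limma adjusted p of 0.00143. The internal Timeless DHS, 14934 bp from the gene start, read 4.56, 4.22 and 4.48 against 1.66, 3.57 and 2.98. Its groups were apart too, and its difference was 1.68 ± 0.50 (limma adjusted p = 0.0246), with a wide spread in the Control line.

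Wdhd1, which links the helicase to polymerase alpha, read 5.30, 5.22 and 5.49 in the Ikaros line and 4.42, 4.79 and 4.09 in the Control line. Its groups did not overlap, and the difference was 0.90 ± 0.20 (limma adjusted p = 0.0041). Dbf4, at the DHS over its start site, read 5.13, 4.72 and 4.73 against 3.62, 4.41 and 3.78, a difference of 0.92 ± 0.23 (limma adjusted p = 0.00898). Again every Ikaros library was above every Control library. The main Dbf4 DHS, 130 bp wide and 940 bp from the start, differed by -0.23 ± 0.34.

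Orc3, an ORC subunit, read 5.08, 5.45 and 5.54 against 4.40, 4.96 and 4.30, without overlap, and differed by 0.81 ± 0.20 (limma adjusted p = 0.00806). By role, 5 of 9 ORC gene DHS were higher, at Orc1, Orc2, Orc3, Orc4 and Orc5, with 3 of 11 in activation (Dbf4, Gins2, Gins4), 3 of 6 in fork protection and 2 of 3 in RPA (Rpa1 and Rpa3). The counts were 2 of 6 on the lagging strand (Fen1, the flap nuclease, and Dna2), 1 of 3 in loading (Cdt1), 1 of 6 among the RFC genes (Rfc3), 1 of 13 among polymerases and primase (Pole2), 1 of 10 in the helicase (Mcm7) and 0 of 2 in ribonucleotide reductase. The 14 calls other than the largest 5 were between 0.46 and 0.75 log2 units. With the replicate block, Rpa1 (limma adjusted p = 0.0516) and Rpa3 (0.0602) were no longer called. That left 17 of the 19, and a further Pold1 DHS was called lower in the Ikaros line, at -0.84 (limma adjusted p = 0.048), which makes 18 calls.

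The MCM genes and Cdc6 were not among the differences, apart from Mcm7 at 0.49 ± 0.15 (limma adjusted p = 0.0359). Mcm2 differed by 0.25 ± 0.14, Mcm3 by 0.26 ± 0.25, Mcm5 by 0.21 ± 0.21, Mcm6 by 0.33 ± 0.17 and Cdc6 by 0.21 ± 0.20. At Mcm5 the Control libraries read 5.96, 5.79 and 5.30 and enclosed the Ikaros libraries at 5.87 and 5.84, with 5.98 just above. Split by an E2F match in the window centred on the DHS, the 15 DHS with one had a median difference of 0.33 and 4 calls. The 54 without had 0.38 and 15 calls.

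The size of the 0 h difference moved with batch and library. The member median was 0.28 in batch 11, 0.20 in batch 12 and 0.65 in batch 13. The count of 19 fell to 4 without the Control 0 h library of replicate 6, to 9, 12 and 8 without the Ikaros 0 h libraries of replicates 4, 5 and 6, and to 2 without replicate 6 in all groups. When smooth trends with level, GC content and width were removed, 3 members were called, 2 higher and 1 lower, and with the promoters' own median set to 0 there were 9, 6 higher and 3 lower. The Timeless promoter DHS kept its call in 17 of 18 alternatives, losing it only when the 0 h groups were fitted alone (limma adjusted p = 0.134).

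**Figure D3:**
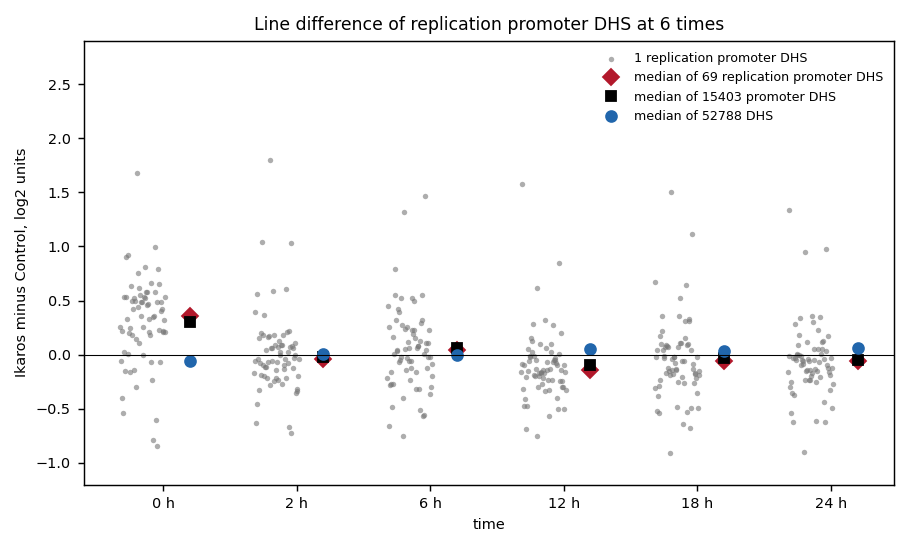
Ikaros minus Control difference in log2 units at 6 times for each of the 69 replication promoter DHS (grey points, horizontal offset arbitrary) with the medians of the members, of all promoter DHS and of all DHS. The member median stands at 0.36 at 0 h, beside 0.30 for promoters, and between -0.14 and 0.04 at the later times.

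From 2 h to 24 h no member DHS passed the test between the lines. With limma the count was 0 of 69 at each of the 5 times. Called by adjusted p at 2, 6, 12, 18 and 24 h were 0.195%, 0.578%, 1.31%, 0.699% and 1.33% of all DHS, and 0.0649%, 0.669%, 0.85%, 0.435% and 0.889% of promoter DHS. At an unadjusted p under 0.05 there were 10, 11, 10, 9 and 10 members (14.5%, 15.9%, 14.5%, 13% and 14.5%). The same held for 10%, 13.8%, 15.8%, 13.1% and 14.7% of all DHS, and for 7.92%, 16.2%, 13.1%, 11% and 11.8% of promoter DHS. The member medians were -0.04, 0.04, -0.14, -0.06 and -0.06 log2 units, against -0.02, 0.06, -0.10, -0.03 and -0.05 for promoter DHS. Groups without overlap, with Ikaros higher, numbered 6, 8, 3 and 5 members at 2, 6, 12 and 18 h, against 5.2%, 15.6%, 5.39% and 7.29% of promoter DHS and 6.49%, 11.1%, 14% and 12% of all DHS. With Ikaros lower they numbered 3, 12, 10 and 13, against 7.52%, 10.2%, 12.1% and 13.9% of promoter DHS and 7.07%, 10.9%, 8.72% and 11.2% of all DHS. At 24 h, 11 member DHS had all Ikaros libraries below all Control libraries (15.1% of promoter DHS, 10.4% of all DHS) and 6 the reverse (8.49% and 15.1%).

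The 3 members nearest to a call at 24 h all had the lower Ikaros value, at Pold1, Pold3 and Rpa2. The Pold1 DHS is a narrow one, 145 bp wide and 697 bp from a start site inside the gene (chr7:44547891-44548036), with the smallest limma adjusted p of the members at this time. It read 4.36, 4.71 and 4.57 in the Ikaros line and 5.33, 5.25 and 5.76 in the Control line. The groups did not overlap, and the difference was -0.90 ± 0.25 (limma adjusted p = 0.0587). Pold3 encodes an accessory subunit of polymerase delta, and its DHS read 5.40, 5.35 and 5.13 in the Ikaros line and 5.81, 5.75 and 5.79 in the Control line at 24 h. The groups were well apart, and the difference was -0.49 ± 0.14 (limma adjusted p = 0.0708). Rpa2 read 5.88, 6.03 and 5.33 against 6.30, 6.15 and 6.62, also without overlap, and differed by -0.61 ± 0.20 (limma adjusted p = 0.115). With a spread fitted per group Pold1, Pold3 and Rpa2 were called (limma adjusted p of 0.0109, 0.0201 and 0.0408). That setting called 3230 of all 52788 DHS at 24 h, against 700 in the main fit. Pold3 was also called with the promoters' median set to 0 (limma adjusted p = 0.04), and Pold1 with the 24 h groups fitted alone (0.0457). Orc1 was at -0.35 ± 0.14 (limma adjusted p = 0.236).

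The helicase genes showed little difference at 24 h. Mcm2 was at 0.01 ± 0.14, Mcm3 at -0.16 ± 0.25, Mcm5 at -0.15 ± 0.21, Mcm6 at -0.03 ± 0.17 and Mcm7 at -0.06 ± 0.15. Cdc6 was at -0.12 ± 0.20, Fen1 at -0.04 ± 0.15, Lig1, the ligase that seals Okazaki fragments, at 0.05 ± 0.17, Gins1 at -0.14 ± 0.21, Prim1, the catalytic primase subunit, at 0.09 ± 0.20, and Pole, the catalytic subunit of polymerase epsilon, at 0.03 ± 0.17. Rrm2, the regulated subunit of ribonucleotide reductase, was at -0.20 ± 0.18. Differences at these genes were within the spread between libraries, and smaller ones were not detectable with 3 libraries a group.

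The difference between the lines itself changed from 0 h to 24 h at 8 member DHS, all downwards. Of all DHS 6.26% were called in this test, 3.4% downwards and 2.85% upwards, and of promoter DHS 9.97% were called, 0.714% upwards and 9.26% downwards. The member share was 11.6%. The median change was -0.46 log2 units over members, -0.38 over promoter DHS and 0.12 over all DHS. The 8 were Rpa2 (-0.94 ± 0.28), Wdhd1 (-0.93 ± 0.28), Rpa3 (-0.90 ± 0.25), Cdt1 at its start site (-0.90 ± 0.23), Timeless (-0.88 ± 0.27), Orc1 (-0.87 ± 0.20), Pold3 (-0.81 ± 0.20) and Orc2 (-0.72 ± 0.20), with limma adjusted p from 0.0163 (Orc1) to 0.0465 (Timeless).

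By group means these 8 were of different kinds. At Timeless and Cdt1 the Ikaros line came down to the Control level, at Orc1, Orc2, Pold3, Rpa2 and Rpa3 the lines crossed, and at Wdhd1 they met. Orc1, the largest ORC subunit, read 5.69, 5.70 and 5.83 in the Ikaros line and 5.51, 5.44 and 4.70 in the Control line at 0 h, and 5.41, 5.38 and 5.13 against 5.66, 5.62 and 5.70 at 24 h. The groups did not overlap at either time, with the Ikaros line above at 0 h and below at 24 h. Rpa3, the small RPA subunit, read 5.92, 5.84 and 5.87 against 5.70, 5.42 and 4.92 at 0 h and 5.66, 5.61 and 5.24 against 5.91, 5.99 and 5.74 at 24 h, with the same order. Orc1 was 5.31 to 5.51 in the Ikaros group means of 2 to 24 h and 5.52 to 5.72 in those of the Control line.

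Among the largest members of each role that were not called, Gins2 changed by -0.75 ± 0.29, the Mcm7 DHS that holds the E2F match by -0.80 ± 0.29, Dna2 by -0.72 ± 0.31 and Rfc5 by -0.68 ± 0.27, with limma adjusted p of 0.107, 0.0858, 0.146 and 0.111. The narrow internal Orc3 DHS went the other way, at 1.40 ± 0.71 (limma adjusted p = 0.214), with replicate values from 2.05 to 4.68. Among the fixed genes, Mcm2, Mcm3, Mcm5, Mcm6, Cdc6, Pole, Prim1 and Lig1 ranged from -0.42 to 0.25, and none was called. Rpa1, also fixed and not called, had a larger fall, at -0.59. Fen1, Gins1, Rrm2 and the main DHS of Mcm7 and Cdt1 fell too, without a call.

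The count of changed DHS moved with single libraries. Between same-numbered libraries, labelled batches 11, 12 and 13, the member median of the change was -0.36, -0.23 and -0.79. With the replicate block 5 of the 8 calls were left, and Timeless (limma adjusted p = 0.0585), Wdhd1 (0.0565) and Rpa2 (0.0545) were lost. The count was 2 without the Control 0 h library of replicate 6 and 2 without the Ikaros 24 h library of replicate 6. It was 3 without Ikaros 0 h replicate 4, Ikaros 24 h replicate 5 or Control 24 h replicate 4, 4 without Ikaros 24 h replicate 4 or Control 24 h replicate 6, and 5 without Ikaros 0 h replicate 6 or Control 24 h replicate 5. With trends removed the member median was 0.02 and with the promoters' median set to 0 it was -0.10. No member was called under these settings or with quantile normalization. With the promoters' median set to 0, Orc1 was at -0.51 (limma adjusted p = 0.0587). Counted from 2 h in place of 0 h, the change had a median of -0.06, and limma called 0 of 69 members and 0 of all DHS. An unadjusted p under 0.05 was found at 0 members, at 1.82% of promoter DHS and at 2.85% of all DHS. The smallest limma adjusted p over all DHS was 0.543. This contrast could hardly call any site, and the 0 does not show that the line difference stayed unchanged after 2 h.

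**Figure D4:**
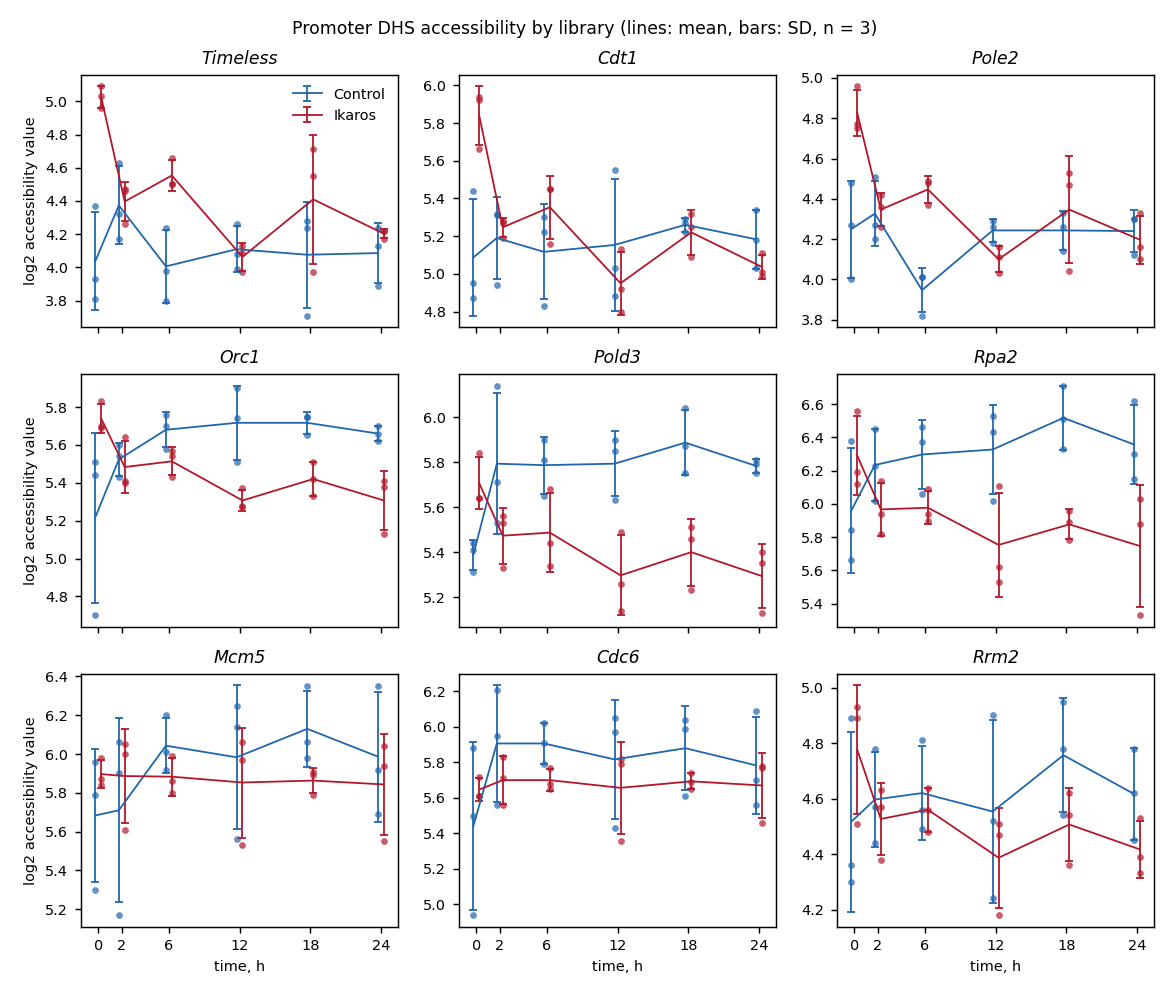
Log2 accessibility of 9 replication promoter DHS by time, with a point for each library, lines through the means of 3 and bars of SD, Control in blue and Ikaros in red. Timeless, Cdt1 (the DHS over its start site) and Pole2 are highest in the Ikaros line at 0 h, Orc1, Pold3 and Rpa2 lie lower in the Ikaros than in the Control line from 2 h on, and Mcm5, Cdc6 and Rrm2 show overlapping lines.

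Within the Ikaros line, 6 member DHS were lower at 24 h than at 0 h and none was higher. Of promoter DHS 11.2% and of all DHS 5.14% were called lower, 2.19% and 7.47% higher, and 13.4% and 12.6% in either direction. The member share was 8.70%. The median was -0.24 log2 units over members and -0.23 over promoter DHS. Timeless read 5.09, 5.03 and 4.96 at 0 h and 4.22, 4.22 and 4.17 at 24 h, a fall by 0.83 ± 0.19 log2 units or 1.78-fold (limma adjusted p = 0.00625). Cdt1, at the DHS over its start site, read 5.66, 5.92 and 5.94 and then 4.99, 5.01 and 5.11, with a change of -0.80 ± 0.17 (limma adjusted p = 0.00319). At both genes all 3 libraries of 24 h lay below all those of 0 h, and the 2 h mean was already 4.39 at Timeless and 5.25 at Cdt1.

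Pole2, an accessory subunit of polymerase epsilon, read 4.96, 4.77 and 4.75 and then 4.16, 4.10 and 4.33. The times were apart, and the change was -0.64 ± 0.15 (limma adjusted p = 0.0074). Prim2, the large primase subunit, was at -0.62 ± 0.21 at a DHS 147 bp wide and 545 bp from its start, Orc1 at -0.43 ± 0.14 and Pold3 at -0.41 ± 0.14, with limma adjusted p of 0.0493, 0.0474 and 0.0492. These last calls were lost with the replicate block (0.0593, 0.0547 and 0.0624), which left 3, at Timeless, Cdt1 and Pole2. The count was also 3 without Ikaros 0 h replicate 4 or without any of the 3 Ikaros 24 h libraries. With the promoters' median set to 0 there were 3 lower, and 3 others were higher, at DHS of Mcm2 (0.68), Rnaseh2a (0.96) and Orc6 (0.87). The batch medians were -0.14, -0.15 and -0.43.

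In the Control line, no member was called between 0 h and 24 h by limma, nor was any other DHS. An unadjusted p under 0.05 was found at 12 members (17.4%), at 11.7% of promoter DHS and at 7.35% of all DHS. The member median was 0.22 log2 units, and it was 0.15 over promoter DHS. Between same-numbered libraries, labelled batches 11, 12 and 13, the member median was 0.19, -0.03 and 0.41. Value by value, 53 of 69 members (76.8%) were below 0 in the Ikaros line, 58 were above 0 in the Control line, and 46 were both. Below 0 in the Control line were 15.9% of members. Of promoter DHS 71.3% were below 0 in the Ikaros line and 29.2% in the Control line, and of all DHS 46.9% and 54.2%. The share that was both was not counted outside the members. The Control 0 h libraries had member medians of 4.70, 4.96 and 4.65, and those of Control 24 h were 5.05, 5.00 and 5.10. The Ikaros libraries went from 5.09, 5.12 and 5.22 to 4.99, 4.94 and 4.81.

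**Figure D5:**
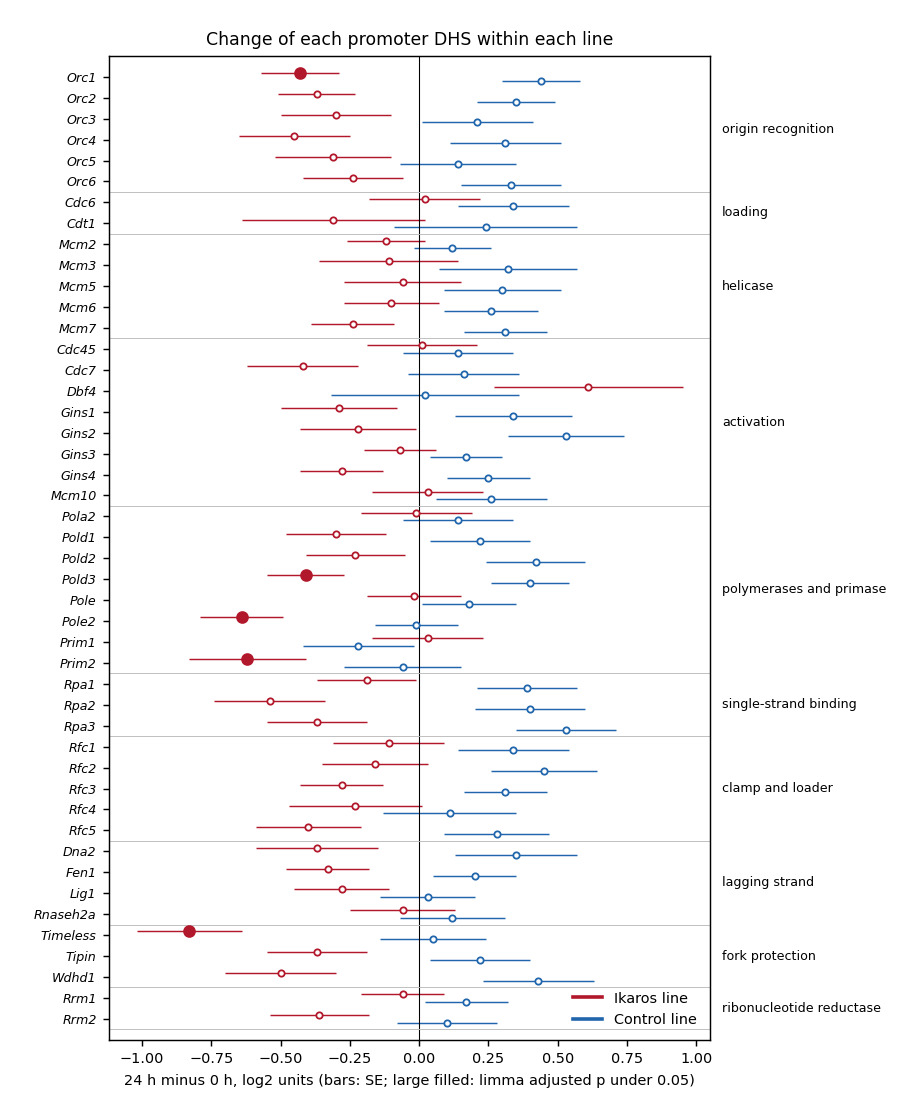
Difference between 24 h and 0 h in log2 units for the main DHS of 46 replication genes, by role, in the Ikaros line (red) and the Control line (blue), with bars of SE and large filled points where the limma adjusted p was under 0.05. Filled points stand at Orc1, Pold3, Pole2, Prim2 and Timeless, all in the Ikaros line and all below 0, and most Control points lie above 0. The points of Cdt1, Dbf4 and Prim2 are their narrow main DHS, so the called Cdt1 DHS over the start site is not drawn.

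Among times under the drug, from 2 h to 24 h, no replication promoter passed the test in either line. In the Ikaros line the 69 differences ran from -0.22 to 0.33 with a median of -0.06, and promoter DHS had a median of -0.07. There limma called 0 members and 0 of all DHS. An unadjusted p under 0.05 was found at 0 members, at 0.0909% of promoter DHS and at 0.0701% of all DHS. With so few small p-values over all DHS, this contrast could hardly call any site, and the 0 does not show that the members stayed unchanged. Mcm5 changed by -0.04 ± 0.21, Mcm6 by -0.05 ± 0.17, Mcm2 by -0.03 ± 0.14, Cdc6 by -0.03 ± 0.20, Rrm2 by -0.11 ± 0.18 and Orc1 by -0.17 ± 0.14. In the Control line the differences ran from -0.62 to 1.05 with a median of -0.01, 0 members were called, and 0.00947% of all DHS were called. An unadjusted p under 0.05 was found at 4 members (5.8%), at 4.15% of promoter DHS and at 6.52% of all DHS.

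Related gene lists were counted in the same way. Called in either direction at 0 h were 24.2% of promoter DHS and 12.9% of all DHS, and in the change from 0 h to 24 h 9.97% and 6.26%. Of 24 further replication factors (30 DHS), 11 DHS were higher and 1 lower at 0 h (40% called). In the change, 4 fell and 1 rose (16.7%). The 9 nucleotide supply genes (12 DHS) include those for thymidylate synthase and dihydrofolate reductase. Of their DHS, 4 (33.3%) were higher at 0 h and none was called in the change. There, 6 had an unadjusted p under 0.05 (50%), as had 34.5% of promoter DHS and 25.1% of all DHS. The 13 genes of E2F and pocket proteins, of which E2f6 had no promoter DHS, had 20 DHS, with 7 higher at 0 h (35%) and 4 lower in the change (20%). At 24 h limma called none in the 3 lists, 0.889% of promoter DHS and 1.33% of all DHS. An unadjusted p under 0.05 was found at 3, 1 and 2 DHS of the lists (10%, 8.33% and 10%), at 11.8% of promoter DHS and at 14.7% of all DHS.

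The values were also split by the E2F match. In the change from 0 h to 24 h the 15 DHS with a match had a median of -0.59 and 4 calls (Cdt1, Pold3, Rpa2 and Timeless), and the 54 without had -0.46 and 4 calls (Orc1, Orc2, Rpa3 and Wdhd1). In the Ikaros line between 0 h and 24 h the medians were -0.29 and -0.23 with 3 calls each. A match was counted only in the window centred on the DHS. The main DHS of Pole2 and Pold1, counted as without, hold E2F motifs inside the DHS but outside that window. These lie at positions 11 to 18 (Pole2) and 40 to 47 (Pold1) from the RefSeq start. Pole2 is among the calls without a match in the Ikaros line, so the even split of calls depends on the window. Mean levels were higher with a match, with a median of 5.26 against 4.89, and ranged from 4.28 to 6.11 with and from 3.04 to 6.06 without it. No test was made of these differences between DHS.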

How the data were processed

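DNase-seq of 36 libraries was analysed. Per the study's methods, reads were trimmed and aligned to mm10, HOMER peaks of 2 styles were found for every library and joined into 1 set of DHS, and the authors normalised by RPKM, then TMM, with ARSyN as the noise filter. The submitters' notes name Bowtie, HOMER and bedtools. The deposited values are log2. Multiplied by DHS length, the values of a library sum to 369487 to 432755 if read as base 2 and to 1575615 to 2338647 if read as base e. The latter exceeds the total that the RPKM scale allows, so base 2 was used. Coordinates are as in the table, where the base of the start is not stated.

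DHS within 1000 bp of a TSS (GENCODE vM21, GRCm38) were promoter DHS. The build was checked by moving the sites 10000 bp, after which 12.3% in place of 29.2% of DHS met this. The fit was made in limma 3.58.1 (R 4.3.3) with 12 group means over 36 libraries (lmFit, contrasts, eBayes with intensity trend, two-sided, Benjamini-Hochberg over all 52788 DHS, threshold 0.05) in 12 contrasts, and the fit was checked on simulated data. P-values and SE measure only the spread between these libraries that the authors' noise filter left. The effect of the filter on that spread was not tested. The members, lists and tests were chosen with earlier results of these data known. Named were all called members of a contrast (above 10 calls, the 5 largest each way), a fixed list of 18 genes and the largest change per role; others are named as examples chosen after their values were seen.

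Alternatives were quantile normalization, median centring, promoter median centring, removal of trends with level, GC and width (splines of 4 degrees of freedom), a spread per group, only the groups of the contrast, no intensity trend, the replicate block, leaving out the lowest 25% of DHS, a limit of 500 bp and leaving out replicates. The basic annotation and 1 DHS per gene were added after seeing the data. The labels give same-numbered replicates 1 batch. By the study's methods the 0 h cells were collected separately. For contrasts of 0 h with a later time, the block and the batch medians therefore join separate collections under 1 label. Residuals of same-numbered libraries of the lines correlated from -0.175 to 0.183, over 0.1 in 3 of 18 pairs, so the pairing rests on the labels. Motifs were counted on both strands.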

Additional observations from a re-analysis of the deposited data

Results flagged for a closer look

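The difference between the lines changed from 0 h to 24 h, by a direct limma test of that change, at 8 replication promoter DHS, where 9.97% of promoter DHS were called. On the log2 scale the values were -0.72 at Orc2, -0.88 at Timeless, -0.93 at Wdhd1, -0.87 at Orc1, -0.94 at Rpa2, -0.90 at Rpa3, -0.81 at Pold3 and -0.90 at the Cdt1 DHS over its start site.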

How the results depend on the processing

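Counts of replication promoter DHS called between the lines at 0 h (19), in its change by 24 h (8) and in the Ikaros line from 0 h to 24 h (6) became 6, 0 and 3 with quantile normalization, 9, 0 and 6 with promoter median centring (of which 6, 0 and 3 were among the first calls), 3, 0 and 2 with trends removed (2, 0 and 1 among the first), 2, 3 and 3 with a spread per group, 0, 0 and 2 with only the groups of the contrast, 10, 5 and 3 with no intensity trend, and 18 (17 of them among the first), 5 and 3 with the replicate block. The block left the counts of 0 in the other comparisons as they were. Where no member was called, 1 was called at 6 h with median centring, a spread per group or no intensity trend, 1 at 18 h and 1 at 24 h with promoter median centring, 5 at 18 h and 3 at 24 h with a spread per group, and 1 at 24 h, the narrow Pold1 DHS, with only those groups. The spread per group called 1618 of all 52788 DHS at 18 h and 3230 at 24 h, against 369 and 700 in the main fit. Leaving out replicates or libraries gave 2 to 25 calls at 0 h, 0 to 2 at 2 h, 0 to 2 at 6 h, 0 to 1 at 12 h, 0 to 11 in the change and 1 to 4 in the Ikaros line, and no calls at 18 h or 24 h. Without replicates 4, 5 and 6 in turn in all groups there were 10, 11 and 2 calls at 0 h, 4, 0 and 0 in the change, and 1, 1 and 2 in the Ikaros line. At 0 h, 4 values of named DHS that were called in the main fit or with trends removed changed sign when trends were removed. They went to -0.12 at Rpa1, -0.72 at Pole, -0.10 at the Dbf4 and -0.01 at the Cdt1 DHS over the start site, and the cause was not tested. Promoter median centring moved the median of all DHS from -0.06 to -0.36 at 0 h and from 0.12 to 0.49 in the change. Of the other values of named DHS, 1800 kept their side of the threshold, 265 fell below it and 14 passed it. The 1800 include values called in neither fit, whose changes of sign were not counted. The reads behind each value are unknown beyond the stated minimum depth per replicate, and with 3 libraries a group the small differences of the helicase genes were not detectable.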
